A study of Mus musculus with 12 samples.

Results

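The circadian clock genes examined here are Arntl, Clock, Npas2, Per1, Per2, Per3, Cry1, Cry2, Dbp and Nr1d1, chosen by name as the core loop and its best known outputs. All 10 had a row among the 23329 genes of the count tables, and all 10 passed the filter on low counts in every comparison. Messenger RNA was sequenced from the duodenum and the spleen of wild type C57BL/6J mice, a common inbred strain, at 2 months of age. Each tissue had 3 libraries from mice given AC H6, an antibody that activates the lymphotoxin beta receptor (LTbR), and 3 from mice given an isotype control antibody, in both cases 100 ul of a 1 mg/ml solution 24 h earlier. The groups were therefore duodenum under AC H6, duodenum under isotype, spleen under AC H6 and spleen under isotype, 12 libraries in all. LTbR belongs to the tumour necrosis factor receptor family and is carried by stromal, epithelial and myeloid cells. The labels give no hour of day for the harvest.

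The mammalian clock is a feedback loop of transcription that runs in nearly every cell. The proteins of Arntl (BMAL1) and Clock, or of Arntl and Npas2, pair and bind E-boxes in the promoters of Per and Cry genes, whose proteins return to the nucleus and repress the pair that made them. Nr1d1 (REV-ERB alpha), itself an E-box target, represses Arntl in a second loop, and Dbp carries the rhythm on to genes with D-boxes. In the intestine the clock times absorption, barrier function and cell renewal, and in the spleen it times the traffic and the cytokine responses of immune cells.

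Promoter sequence is shown for Cry2, which was lower under AC H6 in both tissues, for its paralog Cry1, which was not called in either, and for Per3, which was lower in the duodenum. RefSeq gives windows from 250 bases before the start to 50 after it for 9 of the 10 genes (13 windows, GRCm38.p6); Per2 is named only. The 250 bases before the start are printed 5′ to 3′ along the gene's strand, the minus strand for all 3, with motif matches in capitals. They lie at chr2:92434070-92434319 for Cry2, chr10:85185055-85185304 for Cry1 and chr4:151044666-151044915 for Per3.
Cry2: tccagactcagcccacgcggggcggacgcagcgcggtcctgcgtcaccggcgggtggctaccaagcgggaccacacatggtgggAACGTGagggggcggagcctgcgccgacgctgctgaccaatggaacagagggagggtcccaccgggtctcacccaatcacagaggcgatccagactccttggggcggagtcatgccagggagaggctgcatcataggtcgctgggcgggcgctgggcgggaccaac
Cry1: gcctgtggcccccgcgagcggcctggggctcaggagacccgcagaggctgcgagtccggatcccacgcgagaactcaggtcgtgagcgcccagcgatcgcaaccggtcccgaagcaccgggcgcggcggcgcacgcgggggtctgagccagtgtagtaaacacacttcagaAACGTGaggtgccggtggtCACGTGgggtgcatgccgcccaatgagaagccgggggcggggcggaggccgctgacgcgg
Per3: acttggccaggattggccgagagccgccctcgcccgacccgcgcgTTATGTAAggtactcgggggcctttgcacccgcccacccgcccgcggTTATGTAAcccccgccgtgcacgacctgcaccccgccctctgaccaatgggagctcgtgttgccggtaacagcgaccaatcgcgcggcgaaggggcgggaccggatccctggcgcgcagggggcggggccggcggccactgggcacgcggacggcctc

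The capitals in Cry2 mark an E'-box (CACGTT, or AACGTG on the other strand) that begins 166 bases before the start. Cry1 has the same element 79 bases before its start and the full E-box (CACGTG, which reads alike on both strands) at 60. The capitals in Per3 mark a pair of D-boxes (TTATGTAA, or TTACATAA on the other strand) at 205 and 158 bases before its start. Over all 32851 mouse windows, 7.15% held the E-box, 4.68% the E'-box and 0.938% the D-box. Elsewhere among the clock genes, Per1 held an E-box in 1 of its 2 windows and Nr1d1 an E'-box. The site AGGTCA, searched on both strands, is read by ROR and REV-ERB proteins. It occurred in 3 of the 13 clock gene windows, 1 each of Arntl, Clock and Per1, and in 16.3% of all windows. The single window of Npas2 held none of these letters. No matches overlapped one another within a window.

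Totals ran from 30262668 to 43851006 counts in duodenum AC H6 libraries, from 24811659 to 34488965 in duodenum isotype libraries, from 22405526 to 45847467 in spleen AC H6 libraries and from 13874091 to 36543472 in spleen isotype libraries. Markers bore out the tissue labels: the summed level of 6 enterocyte genes was 27600 to 30500 CPM (read counts scaled to the normalised library size) in the duodenum and 27.5 to 37.9 CPM in the spleen. The summed level of 4 B cell genes was 5.28 to 7.09 CPM in the duodenum and 1480 to 2030 CPM in the spleen. The extraction protocol speaks of brain, but 6 brain markers summed to 44.1 to 81.6 CPM in any library, and Neurod6 was at 0 throughout. Some libraries stood apart: the ribosomal repeat Rn45s took 7.56% of counts in duodenum isotype library 1, amylase 2 took 8.64% in duodenum AC H6 library 3, and haemoglobin took 15.7 to 28.3% in spleen under AC H6 against 7.59 to 19.0% under isotype. Whether each library of a group stands for another mouse is not stated in the labels; p-values cover the spread between libraries, which may in part be technical.

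In the duodenum, 3 of the 10 clock genes differed between AC H6 and isotype: Npas2 was higher, Cry2 and Per3 were lower. In that comparison 34.6% of all genes tested passed (5428 of 15667 at an adjusted p under 0.05 in edgeR's quasi-likelihood test, 18.5% higher and 16.1% lower), so a share of 3 in 10 was near the background. The median log2 fold change of the clock genes was -0.14, beside 0.01 over all genes. The same 3 genes were those whose CPM in the AC H6 libraries did not overlap that in the isotype libraries, a separation seen for 50.0% of all genes tested.

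Npas2 (ENSMUSG00000026077.15, chromosome 1, 39193731 to 39363236, plus strand, GRCm38) encodes the partner that can take the place of CLOCK. Its level was 14.4, 15.4 and 14.9 CPM in the 3 duodenum AC H6 libraries, against 10.5, 9.82 and 8.25 CPM in the isotype libraries. All AC H6 libraries lay above all isotype libraries, and the gap exceeded the spread within either group. The log2 fold change was 0.67 ± 0.10 (SE; 1.6-fold higher, adjusted p = 0.00154, edgeR).

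Cry2 (ENSMUSG00000068742.11, chromosome 2, 92403646 to 92434043, minus strand) encodes a cryptochrome, one of the main repressors of the loop. In the duodenum it stood at 20.3, 22.5 and 20.8 CPM under AC H6, against 29.2, 33.9 and 40.1 CPM under isotype. The AC H6 libraries lay close together and below every isotype library, which were themselves spread more widely. Cry2 fell by 0.68 ± 0.11 on the log2 scale (SE; to 0.625 of its isotype level, adjusted p = 0.00233, edgeR). Both this call and that of Npas2 held under all 16 alternatives.

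Per3 (ENSMUSG00000028957.12, chromosome 4, 151003652 to 151044665, minus strand), the period gene that the core loop can best do without, read 36.3, 46 and 29.8 CPM under AC H6, against 46.8, 49.9 and 55.3 CPM under isotype. The highest AC H6 library came within 1 CPM of the lowest isotype library. Per3 fell by 0.42 ± 0.14 on the log2 scale (SE; adjusted p = 0.0475, edgeR). That call was lost when any library but AC H6 2 was left out: the adjusted p was 0.0606, 0.071 and 0.143 without isotype 1, 2 and 3, and 0.128 and 0.124 without AC H6 1 and 3. Without AC H6 2 it was 0.00763.

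The other 7 clock genes overlapped between the duodenum groups, and none passed. Per1, the period gene that responds fastest to outside signals, was at 63.9 to 72.2 CPM under AC H6 and at 62.1, 74.3 and 112 CPM under isotype (log2 fold change -0.29 ± 0.19, adjusted p = 0.267). The wide spread came from isotype library 3, which was also the highest in Nr1d1 (198 CPM, against 157 and 129 in isotype 1 and 2) and in Hspa5 (2120 CPM, against 970 and 947). Per2 was at 61.3 to 92.3 CPM under AC H6 and at 70.7 to 98.4 CPM under isotype (-0.22 ± 0.17, adjusted p = 0.344). Cry1 was at 19.9 to 24.5 CPM under AC H6 and at 20.1 to 27.1 CPM under isotype, a log2 fold change of -0.08 ± 0.12. The activators Arntl and Clock gave -0.15 ± 0.15 and -0.03 ± 0.08, and the outputs Dbp and Nr1d1 gave -0.02 ± 0.16 and -0.14 ± 0.14, all with adjusted p of 0.453 or more.

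**Figure D1:**
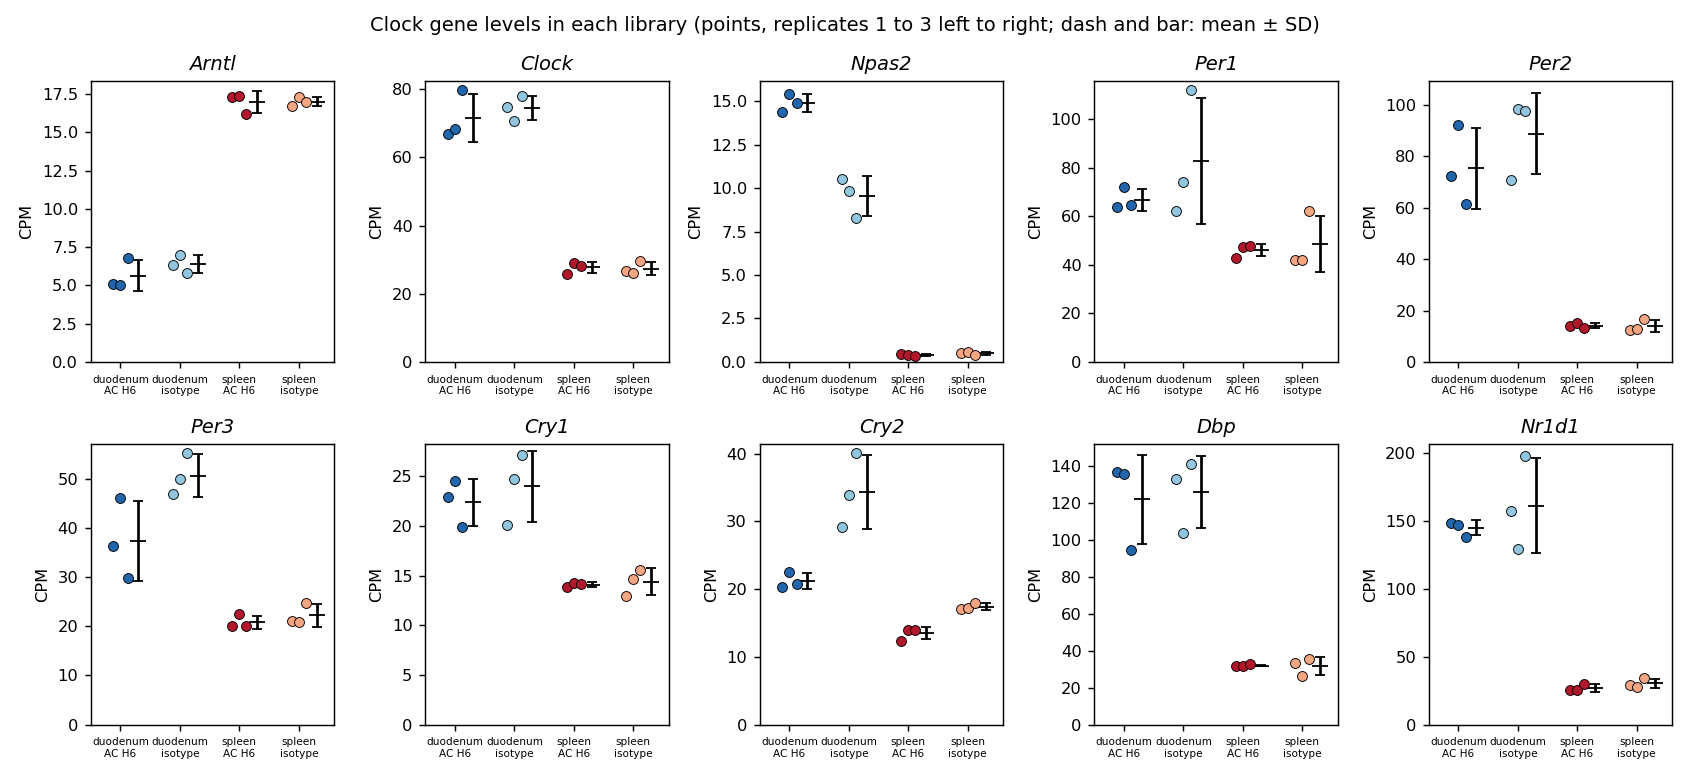
CPM of each clock gene (vertical axes, from 0) in every library of the 4 groups, with AC H6 left of isotype in each tissue; dashes and bars give the mean ± SD of 3 libraries. The AC H6 and isotype points separate for Npas2, Per3 and Cry2 in the duodenum and for Cry2 in the spleen, and Npas2 lies below 1 CPM in all spleen libraries.

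In the spleen, Cry2 was the only clock gene called. It read 12.4, 14 and 14 CPM under AC H6, against 17.0, 17.2 and 17.9 CPM under isotype, with no overlap between the groups. Cry2 fell by 0.37 ± 0.07 on the log2 scale (SE; to 0.775 of its isotype level, adjusted p = 0.0421, edgeR). In the spleen 3.98% of all genes tested passed (608 of 15270, 2.06% higher and 1.92% lower), and CPM did not overlap for 32.7%. Among the clock genes, Cry2 alone was separated in that way. The decrease of Cry2 in both tissues was known when these genes were chosen.

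The spleen call of Cry2 was close to the threshold. It was lost when isotype 1, 2 or 3 was left out (adjusted p = 0.124, 0.104 and 0.126, edgeR) and when AC H6 1 or 3 was left out (0.0982 and 0.128), and kept without AC H6 2 (0.0453), while the log2 fold change stayed between -0.40 and -0.32. With the erythroid marker level as a covariate it was -0.29 ± 0.09 (adjusted p = 0.145), and with replicate number as a block it was -0.37 ± 0.08 (adjusted p = 0.117). The summed CPM of 6 erythroid markers was 1850 to 4830 in spleen under AC H6 and 477 to 2170 under isotype, with 0 of 6 called by edgeR. Of 8 neutrophil markers 7 rose in the spleen, with sums of 1270 to 1810 CPM under AC H6 against 436 to 662 CPM under isotype. B cell markers summed to 1480 to 1710 CPM under AC H6 against 1800 to 2030 CPM under isotype, and 1 of 4 fell. The part of neutrophils and B cells in the Cry2 result was not tested. In bulk tissue, fewer cells of a type and less RNA per cell cannot be told apart.

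The other 9 clock genes overlapped between the spleen groups. Arntl was at 16.2 to 17.4 CPM under AC H6 and at 16.7 to 17.3 CPM under isotype (log2 fold change 0.00 ± 0.06, adjusted p = 0.992, edgeR). Clock, Per2 and Dbp gave 0.02 ± 0.07, 0.01 ± 0.12 and 0.02 ± 0.11, and Cry1 gave -0.03 ± 0.08. Per1 and Per3 gave -0.08 ± 0.15 and -0.09 ± 0.09. Nr1d1 was at 25.2 to 29.9 CPM under AC H6 and at 28.0 to 34.1 CPM under isotype (-0.18 ± 0.10, adjusted p = 0.261). Npas2 was barely detected, at 0.471, 0.384 and 0.328 CPM under AC H6 and 0.511, 0.571 and 0.408 CPM under isotype, which is 8 to 24 counts a library. At that depth its log2 fold change of -0.31 ± 0.25 (adjusted p = 0.492) leaves a wide margin. The median over the clock genes in the spleen was -0.05, against 0.00 over all genes.

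**Figure D2:**
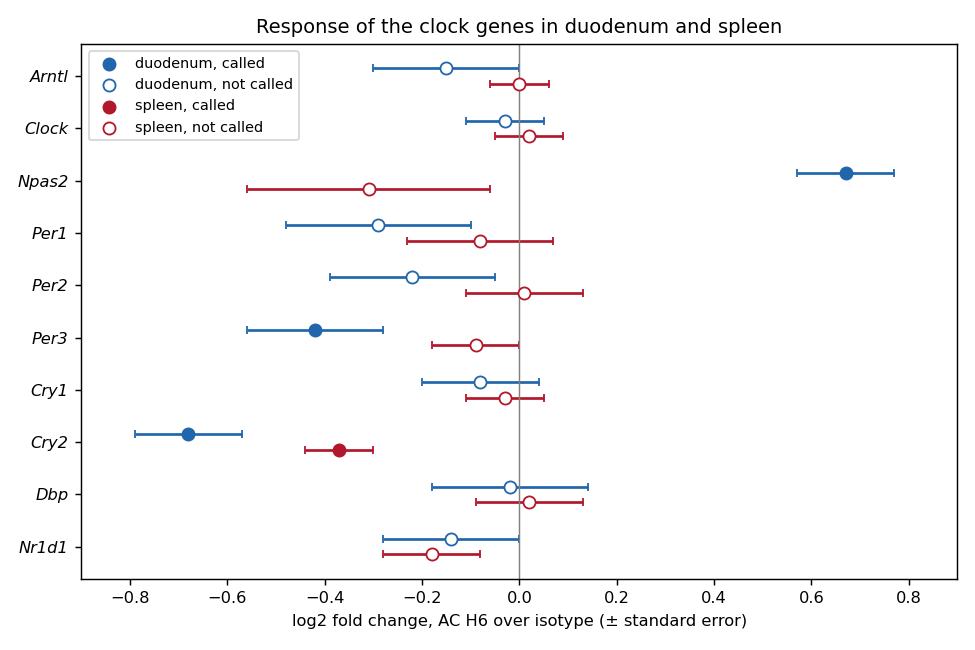
Log2 fold change of each clock gene, AC H6 over isotype (horizontal axis; bars, ± SE), in duodenum (blue) and spleen (red), with filled points for an adjusted p under 0.05 in edgeR. Cry2 lies left of 0 in both tissues, at -0.68 and -0.37, and Npas2 lies at 0.67 in the duodenum and -0.31 in the spleen.

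The response was then compared between the tissues in 1 fit of all 12 libraries, in which 20.0% of genes tested passed (3331 of 16655, 10.9% higher and 9.13% lower). Npas2 was the only clock gene whose response differed, by 0.96 ± 0.25 on the log2 scale in duodenum minus spleen (SE; adjusted p = 0.0172, edgeR). This call was lost without spleen isotype 2 (0.80, adjusted p = 0.15), and it sets 8.25 to 15.4 CPM in the duodenum beside less than 1 CPM in the spleen. Cry2 fell in both tissues, and its difference of -0.33 ± 0.14 did not pass (adjusted p = 0.124), except without duodenum isotype 1 (-0.43, adjusted p = 0.0305). Cry2 was the only clock gene among the 53 of 14366 genes (0.369%) called lower in both tissues. Its place there was known when the clock genes were chosen, so the small share is no test of it. Per3 differed by -0.35 ± 0.19 (adjusted p = 0.219), and passed without duodenum AC H6 2 (-0.52, adjusted p = 0.0378). The other 7 lay between -0.25 and 0.03, with adjusted p of 0.479 or more.

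Ratios of counts within a library do not depend on how libraries are scaled. The log2 ratio of Cry2 to Cry1 was -0.18, -0.12 and 0.07 in duodenum under AC H6, against 0.54, 0.45 and 0.57 under isotype. In the spleen it was -0.16, -0.03 and -0.02 under AC H6, against 0.39, 0.23 and 0.21 under isotype. In each tissue every AC H6 library lay below every isotype library. The decrease of Cry2 was known when the genes were chosen and Cry1 was not called, so this ratio restates that decrease and is no further test. How often other gene pairs separate in this way was not counted. The log2 ratio of Npas2 to Clock in the duodenum, a ratio added after the values had been seen, was -2.21, -2.15 and -2.42 under AC H6, against -2.83, -2.85 and -3.24 under isotype.

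Ratios across the arms of the loop overlapped between treatments in both tissues. Dbp to Arntl, which swings widely over a day because the genes peak at opposite phases, had a mean log2 ratio of 4.43 ± 0.55 under AC H6 and 4.3 ± 0.36 under isotype in the duodenum (SD, n = 3 each). In the spleen it was 0.92 ± 0.08 under AC H6 and 0.89 ± 0.25 under isotype. Nr1d1 to Arntl was 4.69 ± 0.30 under AC H6 and 4.64 ± 0.44 under isotype in the duodenum, and 0.66 ± 0.20 under AC H6 and 0.84 ± 0.16 under isotype in the spleen. Per2 to Arntl was 3.73 ± 0.52 under AC H6 and 3.79 ± 0.30 under isotype in the duodenum, and -0.27 ± 0.05 under AC H6 and -0.29 ± 0.23 under isotype in the spleen. Each of these differences between treatments was smaller than the larger SD of its pair.

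**Figure D3:**
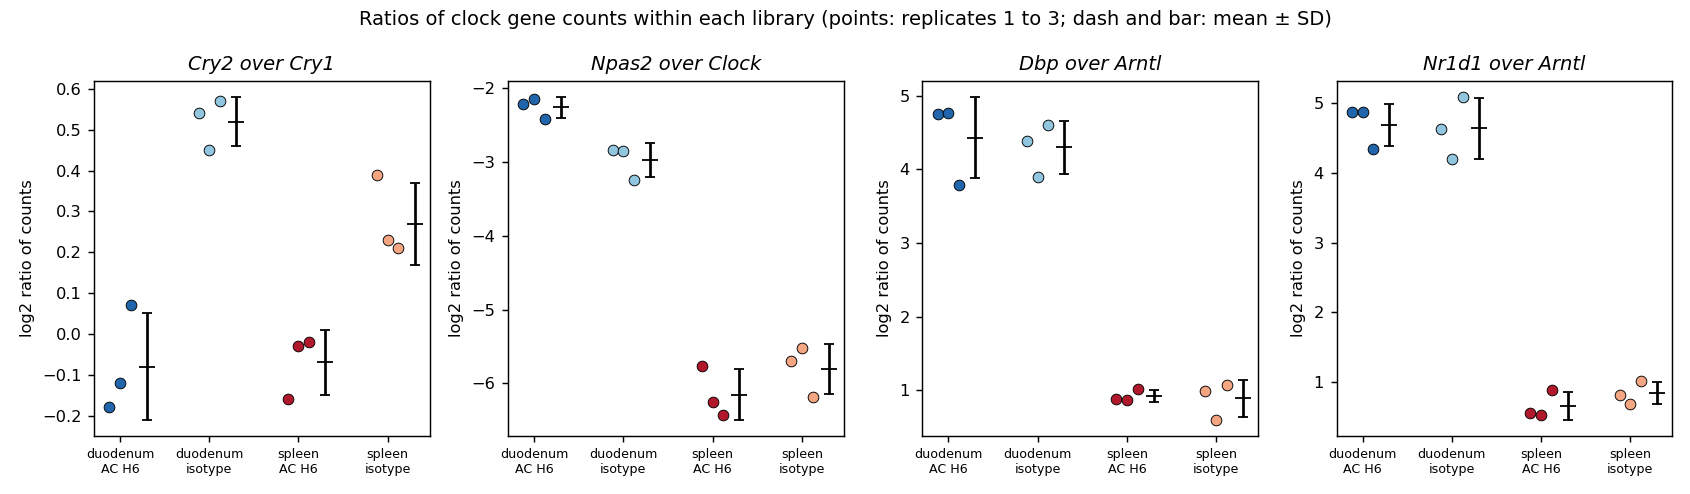
Log2 ratio of counts of clock gene pairs within each library (vertical axes; 4 panels, replicates 1 to 3 left to right; dash and bar, mean ± SD). Cry2 over Cry1 lies between -0.18 and 0.07 in all 6 AC H6 libraries and between 0.21 and 0.57 in all 6 isotype libraries; Dbp and Nr1d1 over Arntl differ between tissues and overlap between treatments.

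The level of the clock genes differed more between tissues than between treatments. Under isotype, all 10 differed between duodenum and spleen, 9 of them higher in the duodenum and Arntl lower, in a comparison in which 86.0% of all genes tested passed (42.2% higher and 43.8% lower) and 87.6% did not overlap in CPM. Arntl (ENSMUSG00000055116.8, chromosome 7) was at 6.36, 6.98 and 5.82 CPM in the duodenum, against 16.7, 17.3 and 17.0 CPM in the spleen (log2 fold change -1.44 ± 0.09, SE, adjusted p = 8.25e-07, edgeR). Its partners ran the other way: Clock was at 70.8 to 77.9 CPM in the duodenum and 26.1 to 29.5 CPM in the spleen (1.41 ± 0.07), and Npas2 was 18.4-fold higher in the duodenum (4.21 ± 0.18).

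Among the repressors, Per2 had the largest tissue difference, at 70.7, 98.4 and 97.7 CPM in the duodenum against 12.4, 13 and 16.8 CPM in the spleen (2.63 ± 0.16, adjusted p = 1.05e-06, edgeR). Per3, Cry2 and Cry1 gave 1.16 ± 0.10, 0.96 ± 0.12 and 0.71 ± 0.12. Per1 gave 0.74 ± 0.24 (adjusted p = 0.0175), with its lowest duodenum library and its highest spleen library both at 62.1 CPM to 3 digits. Its call was lost without duodenum isotype 3 (0.47, adjusted p = 0.0538), spleen isotype 1 (0.62, adjusted p = 0.0722) or spleen isotype 2 (0.64, adjusted p = 0.0617). Of the outputs, Nr1d1 was at 129 to 198 CPM in the duodenum and 28.0 to 34.1 CPM in the spleen (2.38 ± 0.16), and Dbp at 104 to 141 CPM in the duodenum and 26.3 to 35.6 CPM in the spleen (1.97 ± 0.15). The median over the clock genes was 1.29, against -0.05 over all genes. Tissue cannot be told apart from cell makeup here, since the cells of duodenum and spleen differ. The labels give no hour of harvest, so a tissue difference in level and one in clock phase cannot be told apart either. The labels do not say whether a duodenum and a spleen library with the same number came from 1 mouse, and this comparison and the interaction treat them as independent.

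Levels of different genes were set in order as CPM per kilobase of exon (GENCODE M21 lengths). Dbp stood first in all 4 groups, at 66.7 and 68.8 CPM per kilobase in duodenum under AC H6 and isotype, and at 17.4 and 17.3 in spleen under AC H6 and isotype. Nr1d1 came next in all 4 groups, at 53.2 and 59.3 CPM per kilobase in duodenum under AC H6 and isotype, and its range overlapped that of Dbp there but not in the spleen. Per2 and Per1 followed in the duodenum and overlapped each other in both groups. In the duodenum isotype group Per3, Cry1, Cry2 and Clock then lay between means of 8.44 and 7.5 CPM per kilobase, with each range overlapping the next. Under AC H6 the order from there was Cry1 (7.42), Clock (7.22), Per3 (6.23) and Cry2 (4.89), and Cry2 was clear of Npas2 (3.52) below it. The lowest place was held by Arntl in the duodenum, at 1.83 CPM per kilobase under AC H6 and 2.07 under isotype, where it overlapped Npas2 (2.25). In the spleen Arntl stood next below Per1 under both treatments, at 5.50 CPM per kilobase under AC H6 and 5.51 under isotype, and Npas2 was last at 0.093 and 0.117. Cry2 stood at 3.10 CPM per kilobase in spleen under AC H6, next below Per3 (3.47), and at 4.0 under isotype, next above Per3 (3.70); in the isotype group these neighbours overlapped.

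**Figure D4:**
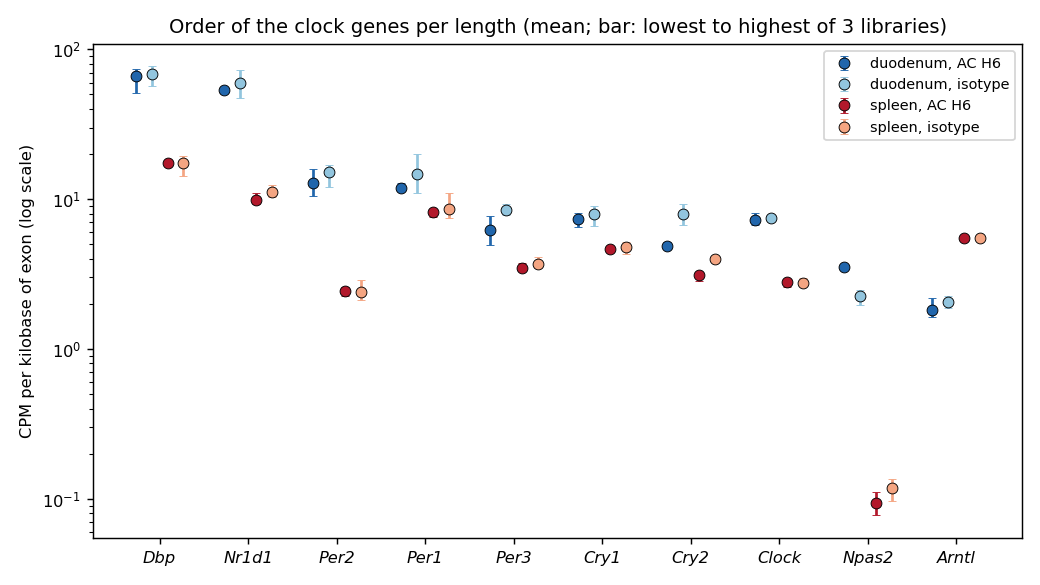
Mean CPM per kilobase of exon of the clock genes (vertical log axis; bars, lowest to highest of 3 libraries) in the 4 groups, ordered by the duodenum isotype mean. Dbp and Nr1d1 stand highest in all groups, Npas2 lowest in the spleen and Arntl lowest in the duodenum.

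The kit does not mark strand, so reads from genes that overlap on opposite strands cannot be told apart. Dbp shares 539 exon bases (29.3% of its own) with Sphk2, which gave -0.08 ± 0.08 in the duodenum and 0.02 ± 0.06 in the spleen on the log2 scale. Nr1d1 shares 263 bases (9.67%) with Thra, the thyroid hormone receptor alpha gene. Thra was at 48.5 to 53.9 CPM in duodenum under AC H6 against 76.5 to 83.1 CPM under isotype, and it fell by 0.58 ± 0.06 on the log2 scale (adjusted p = 0.000312, edgeR), whereas the value for Nr1d1 was -0.14 ± 0.14. Cry2 shares 149 bases (3.43%) with D930015M05Rik, which read 1.19 to 1.88 CPM in duodenum under AC H6 and 1.73 to 2.87 CPM under isotype. In the spleen it read 0.718 to 1.07 CPM under AC H6 and 1.05 to 1.56 CPM under isotype. It gave -0.46 ± 0.26 in the duodenum and -0.43 ± 0.24 in the spleen, the direction of Cry2, and was not called (adjusted p = 0.208 and 0.275, edgeR). Under isotype Sphk2 and Thra were higher in the duodenum than in the spleen, as Dbp and Nr1d1 were. Sphk2 was at 145 to 158 CPM in the duodenum against 44.9 to 47.6 CPM in the spleen. Thra was at 76.5 to 83.1 CPM in the duodenum against 14.1 to 15.1 CPM in the spleen. The part of these overlaps in the clock gene results, with the tissue differences and the level order among them, was not tested.

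Other clock genes were described by list, each set beside the 34.6% of all genes called in the duodenum and the 3.98% in the spleen. In the second loop, 1 of 5 tested genes fell in the duodenum and none rose, which is no more than the background; DESeq2 and limma-voom each called 2 lower. Tef, a D-box factor like Dbp, was at 144 to 162 CPM under AC H6 against 185 to 209 CPM under isotype (-0.31 ± 0.08, adjusted p = 0.0193, edgeR), a call lost without isotype 3 (adjusted p = 0.0688). Nr1d2, the paralog of Nr1d1, gave -0.29 ± 0.10 and Hlf gave -0.20 ± 0.08, neither past the threshold (adjusted p = 0.0509 and 0.0739). The list's median was -0.29. In the spleen edgeR, DESeq2 and limma-voom called 0 of the 5, and the unadjusted p was under 0.05 for 0. Rorb did not pass the filter in either tissue.

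Among further repressors and loop proteins, 2 of 6 rose in the duodenum and none fell, close to the background of 34.6% called in either direction. Timeless was at 13.4 to 14.5 CPM under AC H6 against 9.43 to 10.8 CPM under isotype (0.45 ± 0.08, adjusted p = 0.00471, edgeR). Tipin, its binding partner, was at 11.2 to 13.9 CPM under AC H6 against 9.12 to 10.8 CPM under isotype (0.34 ± 0.11, adjusted p = 0.0485), and its call was kept under 7 of 16 alternatives. Both proteins also guard stalled replication forks. Bhlhe40, Bhlhe41, Arntl2 and Ciart (row Gm129), direct repressors and a BMAL1 paralog, were not called. In the spleen 0 of 6 were called by any of the 3 tools. An unadjusted p under 0.05 was found for 1, beside 4260 of all 15270 genes tested.

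Of 14 kinases, ubiquitin ligases and proteases that act on PER and CRY proteins, 1 rose and 3 fell in the duodenum, a share of 4 in 14 that is below the background of 34.6%. Usp2, a deubiquitinase, was at 70.0 to 81.6 CPM under AC H6 against 103 to 126 CPM under isotype (-0.59 ± 0.09, adjusted p = 0.00175, edgeR). Fbxl21, a ubiquitin ligase subunit, at 0.892 to 1.37 CPM under AC H6 against 1.52 to 2.44 CPM under isotype, fell by 0.81 ± 0.25 (adjusted p = 0.0371), and the kinase Gsk3a fell by 0.19 ± 0.06 (adjusted p = 0.0493). Csnk1e, a kinase of the PER proteins, was at 17.5 to 17.8 CPM under AC H6 against 13.8 to 15.2 CPM under isotype (0.29 ± 0.07, adjusted p = 0.0108). The calls of Usp2 and Csnk1e held under all 16 alternatives, that of Gsk3a under 9 of 16 and that of Fbxl21 under 8 of 15. In the spleen 0 of 14 were called by any of the 3 tools. An unadjusted p under 0.05 was found for 2, beside 4260 of all 15270 genes tested.

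Of 9 tested output genes, 1 rose and 1 fell in the duodenum, a share below the background of 34.6%. Nampt, the enzyme of NAD salvage whose product feeds back on the clock, was at 131 to 144 CPM under AC H6 against 170 to 190 CPM under isotype (-0.38 ± 0.07, adjusted p = 0.00554, edgeR). Usp54 rose by 0.33 ± 0.10 (adjusted p = 0.0355), a call kept under 10 of 16 alternatives. In the spleen 1 of 9 rose and 0 fell in edgeR, where 3.98% of all genes were called, while DESeq2 called 2 higher and limma-voom 1. An unadjusted p under 0.05 was found for 3, all higher, beside 4260 of all 15270 genes tested. The gene called was Cdkn1a, the cell cycle inhibitor p21, at 10.2 to 11.1 CPM under AC H6 against 8.23 to 8.50 CPM under isotype (0.36 ± 0.07, adjusted p = 0.045). It was called under 7 of 15 alternatives. Noct (row Ccrn4l) gave a larger 0.68 ± 0.17 but did not pass (adjusted p = 0.0656, edgeR).

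Glucocorticoids and body temperature can both reset peripheral clocks, so their response genes were listed too. Of 12 glucocorticoid response genes, 0 rose and 2 fell in the duodenum, a share below the background of 34.6%. They were the metallothionein genes Mt2, at 72.1 to 76.8 CPM under AC H6 against 161 to 217 CPM under isotype (-1.27 ± 0.11, adjusted p = 0.000125, edgeR), and Mt1 (-0.94 ± 0.16, adjusted p = 0.003). Metal ions also control both. The list leaned lower in the duodenum, with a median log2 fold change of -0.23. An unadjusted p under 0.05 was found for 4 genes, all lower, beside 7112 of all 15667 genes tested. DESeq2 called 3 lower and limma-voom 2. Among genes that edgeR did not call, Tsc22d3 gave -0.48 ± 0.20 and Klf9 -0.30 ± 0.12 (adjusted p = 0.0953 and 0.0963). Fkbp5 gave 0.82 ± 0.37 and Zbtb16 1.06 ± 0.57 (adjusted p = 0.121 and 0.18). Tsc22d3 was at 66.6 to 80.1 CPM under AC H6 against 80.9, 84.9 and 141 CPM under isotype, where library 3 stood apart. In the spleen edgeR and limma-voom called 0 of the 12 and DESeq2 called 3, all higher; 4 had an unadjusted p under 0.05, and Fkbp5 gave 0.68 ± 0.18 (adjusted p = 0.076).

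Of 8 temperature response genes, 2 rose and 1 fell in the duodenum, close to the background of 34.6%, and 1 rose and 1 fell in the spleen, where 3.98% of all genes were called. Cirbp, the cold-inducible RNA-binding protein gene, fell in both tissues. It was at 16.4 to 20.2 CPM in duodenum under AC H6 against 24.1 to 28.5 CPM under isotype (-0.50 ± 0.10, adjusted p = 0.00521, edgeR), and at 45.3 to 50.9 CPM in spleen under AC H6 against 63.8 to 84.8 CPM under isotype (-0.61 ± 0.11, adjusted p = 0.031). The chaperone genes Hsph1 (1.01 ± 0.25, adjusted p = 0.016) and Hsp90aa1 (0.45 ± 0.10, adjusted p = 0.00779) rose in the duodenum. The other listed chaperone genes were not called there: Hspa5 gave -0.24 ± 0.29, Hspa1a 0.45 ± 0.44, Hspa1b 0.44 ± 0.47 and Dnajb1 0.01 ± 0.09. In the spleen Hsph1 and Hsp90aa1 gave 0.84 ± 0.27 and 0.46 ± 0.11 (adjusted p = 0.108 and 0.0654). Hspa5, a chaperone of the endoplasmic reticulum, rose there by 0.50 ± 0.06 (adjusted p = 0.0164). Hspa1a, Hspa1b and Dnajb1 gave 0.07 ± 0.27, 0.09 ± 0.28 and 0.07 ± 0.10 in the spleen and were not called. The cold-inducible Rbm3 gave -0.21 ± 0.07 in the duodenum and -0.22 ± 0.09 in the spleen (adjusted p = 0.0569 and 0.166). The duodenum calls of Cirbp and Hsp90aa1 held under all 16 alternatives, that of Hsph1 under 15 (adjusted p = 0.0502 without AC H6 2), and the spleen calls of Cirbp and Hspa5 held under 10 and 9 of 15.

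Cell markers also moved in the duodenum beside these results. The enterocyte sum was 27600 to 29000 CPM under AC H6 against 30200 to 30500 CPM under isotype, with 2 of 6 markers higher and 4 lower. Neutrophil markers summed to 64.9 to 82.3 CPM under AC H6 against 32.5 to 39.8 CPM under isotype, with 4 of 6 tested higher and 1 lower. The part of enterocytes and neutrophils in the clock gene results was not tested. Pancreatic acinar markers summed to 21.3, 593 and 6300 CPM under AC H6 and to 13.2, 1790 and 57.5 CPM under isotype; with their level as a covariate Npas2 and Cry2 were still called and Per3 was not (adjusted p = 0.0591, edgeR), although its log2 fold change of -0.41 ± 0.15 was as large as without the covariate.

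The genes whose levels lay closest to those of Cry2 were sought over the 12 libraries, as the root mean square difference of log2 CPM centred on each tissue's mean, among the 14365 other genes tested in both tissues. They were Kcnk5, a potassium channel gene (0.0977), Abca8a, a transporter gene (0.0999), Clk1 (0.101) and Clk4 (0.102), which encode kinases of splicing factors, and Osgin1 (0.11). Kcnk5 was at 63.2 to 64.9 CPM in duodenum under AC H6 against 77.9 to 113 CPM under isotype, and at 11.2 to 11.8 CPM in spleen under AC H6 against 13.6 to 14.6 CPM under isotype. Clk1 was at 71.9 to 95.7 CPM in duodenum under AC H6 against 118 to 136 CPM under isotype, and at 245 to 278 CPM in spleen under AC H6 against 305 to 344 CPM under isotype. All of these genes were called lower in the duodenum and none in the spleen. The spleen adjusted p was 0.0522 for Kcnk5, 0.176 for Abca8a, 0.0729 for Clk1, 0.0855 for Clk4 and 0.146 for Osgin1 (edgeR). Abca8a overlapped in the spleen, at 10.7 to 13.7 CPM under AC H6 against 13.3 to 16.3 CPM under isotype. These values describe the choice and are no test. Of the other clock genes, Per3 ranked 315, Per1 1858, Nr1d1 2212, Cry1 2748, Per2 2782, Clock 4346, Arntl 4438, Dbp 7039 and Npas2 12624 of 14365.

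**Figure D5:**
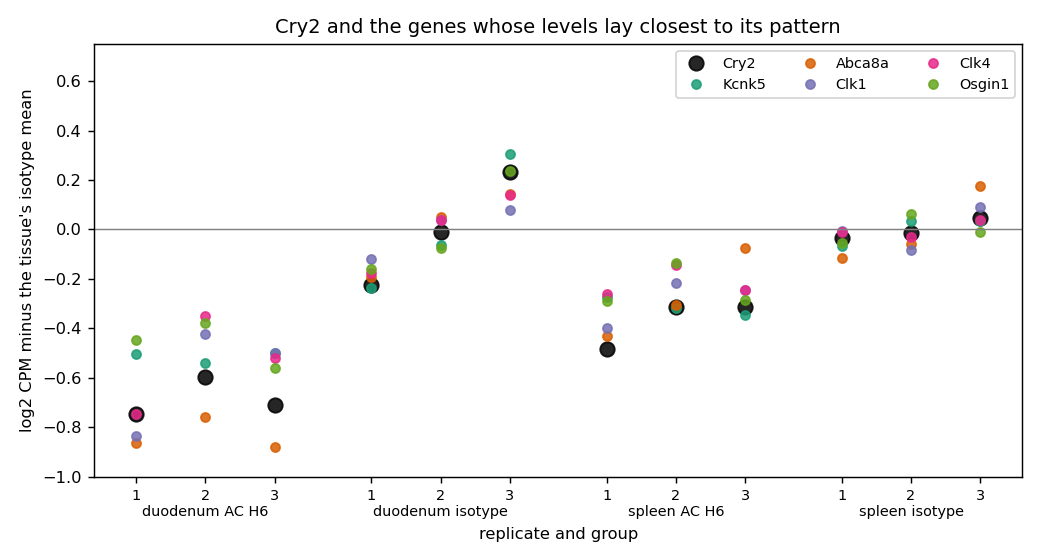
Log2 CPM of Cry2 (large black points) and the 5 genes closest to it, minus the mean of the tissue's isotype libraries (vertical axis), in each replicate of the 4 groups. In both tissues the AC H6 points of all 6 genes lie below 0, and in the duodenum isotype group all 6 genes are lowest in library 1 and highest in library 3.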

How the data were processed

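Counts per gene were deposited by the authors as 1 table of whole numbers for each of the 12 libraries; per the file headers they keep reads with several matches. The submitters' processing notes name mm10, STAR 2.3, Trimmomatic, edgeR and bcl2fastq 2.19. Which tool and annotation gave the counts is not given in the sources used here. Tables were joined by identifier, since 2 had another row order.

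From the counts, edgeR 4.0.16 (R 4.3.3) gave TMM factors, CPM over all 12 libraries, and the quasi-likelihood test (glmQLFit, glmQLFTest) after filterByExpr. Fits used the 6 libraries of a tissue for its response, the 6 isotype libraries for the tissue comparison and all 12 for the interaction. A gene is called when its p, adjusted by Benjamini-Hochberg over every gene tested, is under 0.05. The SE is the log2 fold change divided by the square root of F. Log2 CPM for likeness used a prior count of 2. Each test was tested on simulated data. No library repeated another within sampling noise.

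The clock genes and all lists were chosen with earlier results of these data known. All 10 are named whatever their p, with called genes of other lists, the 4 of smallest p in each at most, and the 5 genes most like Cry2; Thra, Sphk2 and D930015M05Rik are named for their overlap, and Hspa5 in duodenum isotype 3 after its value was seen. A gene each of the lists of the second loop and of kinases and ligases is not reported here and is left out of those lists' counts. Mzb1, on the plasma cell marker list, was not analysed here; the markers of goblet cells, Paneth cells, smooth muscle, red pulp macrophages and plasma cells stand in the closing section. Positions and exon lengths are those of GENCODE M21 on GRCm38. Alternatives were RLE size factors, no filter, a stricter filter (10 counts in each library of a group and a mean log2 CPM of 1), the DESeq2 1.42.0 test, limma-voom (limma 3.58.1), the replicate block, scaling without dominant genes, 1 fit of 12 libraries, and each library left out. Marker covariates and the removal of both outlying duodenum libraries were added after seeing the data.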

Additional observations from a re-analysis of the deposited data

Results flagged for a closer look

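The interaction of tissue and treatment in edgeR's quasi-likelihood test drew attention to 1 clock gene and 6 genes of the other lists. Each value is the log2 response to AC H6 in the duodenum minus that in the spleen, and 20.0% of all genes passed this test. Npas2 differed by 0.96 (adjusted p = 0.0172). Among the kinases and ligases Csnk1e differed by 0.33 and Gsk3a by -0.33 (adjusted p = 0.0279 and 0.0157). Nampt differed by -0.51 and Cdkn1a by -0.45 (adjusted p = 0.00217 and 0.0142), Nampt being lower in the duodenum and Cdkn1a higher in the spleen under AC H6. The metallothionein genes differed most, Mt1 by -1.5 and Mt2 by -2.33 (adjusted p = 0.00247 and 0.00127), with Mt2 at 72.1 to 76.8 CPM in duodenum under AC H6 against 161 to 217 CPM under isotype, and at 6.43 to 12.6 CPM in spleen under AC H6 against 2.82 to 6.59 CPM under isotype. The differences of Nampt, Mt1 and Mt2 held under all 20 alternatives, those of Gsk3a and Cdkn1a under 18, and that of Csnk1e under 13.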

How the results depend on the processing

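The counts of clock genes called were the same under the other tools, filters and scalings in all 4 comparisons. In the spleen the count was 0 with the replicate block (1 gene called of all) and 0 with the erythroid level as a covariate, and it ran from 0 to 1 with libraries left out. In the interaction it ran from 0 to 2 with libraries left out, and in the duodenum from 2 to 3. Per3 in the duodenum was not called with the replicate block (-0.43, adjusted p = 0.0539, edgeR), the acinar covariate (-0.41, 0.0591), or both outlying libraries out (-0.33, 0.107), against -0.42. Signs turned only for genes that were not called in the main fit. Farthest from 0 there were Per1 in the interaction (-0.23 ± 0.28) and Nr1d1 in the duodenum (-0.14 ± 0.14). In the spleen with the erythroid covariate the signs of Per1, Per3 (0.08) and Cry1 (0.05) turned. Per1 moved most of these, from -0.08 to 0.26 ± 0.09 (unadjusted p = 0.0177, adjusted p = 0.203, edgeR). In the duodenum Dbp turned with the acinar covariate (0.06) and without both outlying libraries (0.18). With 1 library left out, log2 fold changes in the spleen ran from -0.02 to 0.08 for Clock, -0.18 to 0.14 for Per1, -0.07 to 0.16 for Per2, -0.10 to 0.03 for Cry1 and -0.10 to 0.12 for Dbp. In the duodenum they ran from -0.12 to 0.02 for Clock, -0.18 to 0.02 for Cry1, -0.14 to 0.13 for Dbp and -0.28 to 0.04 for Nr1d1. Interaction values ran from -0.43 to 0.05 for Per1, -0.17 to 0.05 for Cry1, -0.18 to 0.09 for Dbp and -0.11 to 0.20 for Nr1d1. The cause of these changes was not tested.

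Libraries with the same replicate number did not deviate together throughout: the correlation of their deviations was over 0.1 for 1 of 3 pairs in the spleen (-0.0415 to 0.169) and 2 of 3 in the duodenum (-0.162 to 0.344), so the numbers were not taken to pair them. Between duodenum and spleen it was over 0.1 for 1 of 3 same-numbered pairs under AC H6 (-0.127 to 0.109) and for 2 of 3 under isotype (0.0948 to 0.317), where each library correlated best with its own number, a hint from the data and not the design. With the replicate block all 10 clock genes were still called between tissues, and Npas2 alone in the interaction (1.02, adjusted p = 0.031, edgeR). The replicate block left 1 gene called in the spleen, against 608 without it, and 5421 in the duodenum, against 5428. The total of spleen calls also fell to 14 to 104 when a library other than AC H6 2 was left out and rose to 1132 without AC H6 2, and was 219 with the erythroid covariate and 1356 in DESeq2. Depth limits Npas2 in the spleen, at 8 to 24 counts a library.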

Other observations

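Summed levels of the remaining marker lists are given as values. Red pulp macrophage markers summed to 35.8 to 38.3 CPM in duodenum under AC H6 against 16 to 17.2 CPM under isotype, and to 656 to 729 CPM in spleen under AC H6 against 552 to 601 CPM under isotype. In the duodenum, goblet cell markers summed to 6820 to 7460 CPM under AC H6 against 7530 to 7700 CPM under isotype. Paneth cell markers summed there to 2380 to 3360 CPM under AC H6 against 2600 to 3320 CPM under isotype, and smooth muscle markers to 1110 to 1390 CPM under AC H6 against 1210 to 1280 CPM under isotype. The plasma cell markers Igj and Sdc1 summed to 477 to 636 CPM in duodenum under AC H6 against 571 to 641 CPM under isotype, and to 454 to 732 CPM in spleen under AC H6 against 519 to 755 CPM under isotype. T cell markers summed to 39.4 to 42.3 CPM in duodenum under AC H6 against 33.9 to 36.4 CPM under isotype, and to 205 to 224 CPM in spleen under AC H6 against 252 to 296 CPM under isotype. The log2 ratio of Per3 to Per2, added after the values had been seen, was -1.0, -1.01 and -1.04 in duodenum under AC H6 against -0.60, -0.98 and -0.82 under isotype, and 0.52, 0.57 and 0.61 in spleen under AC H6 against 0.76, 0.68 and 0.57 under isotype.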
